A study of Mus musculus with 13 samples.

Results

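The 7 spontaneously immortalized mouse embryonic fibroblast (MEF) lines of the series were compared with each other within each genotype. They are 7 of 13 RNA-seq libraries, 3 of them wild type (WT lines 3, 4 and 5) and 4 of them Prkd3-/- (lines 13, 13a, 14 and 15), and were taken as all libraries labelled immortalized. The other 6 libraries are primary MEFs of clones 3, 4 and 5 (WT) and 13, 14 and 15 (Prkd3-/-), and gave the spread between cultures that were not immortalized and, for a few genes, a level to set beside the lines. For each gene the standard deviation (SD) of log2 CPM (read counts scaled to a common library size) between the lines of a genotype was computed, and genes were ranked by it, so a large SD marks a gene whose level depended on the line and a small SD one that was alike in all of them.

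WT MEFs of 3 embryos were passaged serially to senescence by a modified 3T3 protocol and were then kept in 20% fetal calf serum until colonies grew out into a line. Before senescence and after outgrowth the WT MEFs grew in high-glucose medium with 10% serum. Polyadenylated RNA was sequenced once per line. Prkd3 encodes protein kinase D3, a serine/threonine kinase, and the Prkd3-/- MEFs are labelled as homozygous for its loss. The age of the embryos, the strain and the origin of line 13a, which carries the clone number of line 13 and has no primary library of its own, are not given in the sources used here.

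The lines held 52659057 to 72695290 counts each. A count was seen for 24251 genes in line 13 and for 25798 to 27989 in the other lines. Prkd3 was still counted in the Prkd3-/- lines, at 59.2, 49.2, 60.0 and 43.4 CPM in lines 13, 13a, 14 and 15 against 75.8, 95.5 and 80.0 CPM in WT lines 3, 4 and 5, so the lines of the genotypes did not overlap, although counts over the whole gene remained in the Prkd3-/- lines. Of 13 fibroblast markers, 11 to 13 exceeded 1 CPM in every line, with Col1a1, the main chain of type I collagen, between 7563 and 39990 CPM. The 3 WT primary libraries were close to each other (Pearson r of log2 CPM 0.995 or more), although they differed by more than sampling noise (chi-square per degree of freedom 6.08 to 15). All 3 contained both Xist (43.7 to 55.3 CPM), the X-inactivation RNA of female cells, and the Y-linked Ddx3y (51.1 to 63.5 CPM).

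Spontaneous immortalization starts from a mixed culture of embryonic fibroblasts and ends with the descendants of the few cells that pass senescence. The block on division in these cells is known to rest on the p53 and retinoblastoma pathways, which are fed by the products of the Cdkn2a locus, p19Arf and p16Ink4a. Fibroblasts also keep a record of where in the embryo they came from, in the form of Hox genes and other positional transcription factors, so a line that descends from few cells can carry the positional code of those cells.

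The promoters of 3 interferon-stimulated genes are printed first, because the interferon response genes were the list of more than 20 genes with the largest median SD between the WT lines. Each is the 250 bases before the RefSeq transcription start (GRCm38.p6), 5′ to 3′ on the strand of the gene, and capitals mark matches, on either strand, to the core of the interferon-stimulated response element, which was searched as GAAA, any 2 bases and GAAA. The Ifit1 promoter (chr19:34640639-34640888, plus strand) and the Ifit3 promoter (chr19:34583279-34583528, plus strand) each hold 2 matches, and the Isg15 promoter (chr4:156200819-156201068, minus strand) holds 3 that overlap.
Ifit1: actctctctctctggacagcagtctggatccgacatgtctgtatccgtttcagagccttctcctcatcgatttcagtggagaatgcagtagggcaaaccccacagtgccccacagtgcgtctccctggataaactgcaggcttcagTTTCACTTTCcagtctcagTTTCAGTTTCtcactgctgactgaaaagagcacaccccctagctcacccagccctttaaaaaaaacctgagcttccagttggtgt
Ifit3: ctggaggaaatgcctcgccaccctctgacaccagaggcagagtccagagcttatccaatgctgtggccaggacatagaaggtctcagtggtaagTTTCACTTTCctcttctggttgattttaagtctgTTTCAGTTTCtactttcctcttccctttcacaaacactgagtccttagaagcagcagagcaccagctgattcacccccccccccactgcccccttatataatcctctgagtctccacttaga
Isg15: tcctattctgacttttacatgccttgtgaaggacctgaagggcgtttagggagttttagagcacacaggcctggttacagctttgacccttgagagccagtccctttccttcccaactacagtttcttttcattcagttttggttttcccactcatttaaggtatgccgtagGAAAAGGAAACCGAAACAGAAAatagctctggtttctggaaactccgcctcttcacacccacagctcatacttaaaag
Of the 38 genes searched for this motif, 24 had a promoter in the table and 14 of those held a match, against 978 of all 32851 promoters of the same length (2.98%). A match describes the letters and is not evidence that a factor binds there. The genes searched were listed as interferon response genes, so their share of matches says nothing about differences between lines.

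The lines of a genotype differed from each other far more than its primary cultures did, and most genes took part to a small extent while a minority took part strongly. Among 15360 genes with a mean of at least 1 CPM over the WT lines, the median SD was 0.28 (5th to 95th percentile 0.07 to 1.68), against 0.06 between the WT primary libraries. Among 15460 such genes in the Prkd3-/- lines the median SD was 0.46 (0.15 to 2.38), against 0.21 between the Prkd3-/- primary libraries. The SD between lines exceeded that between primary libraries for 92.3% of genes in WT and 85.2% in Prkd3-/-. The SDs of the genotypes rest on 3 and 4 lines and were not tested against each other.

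The highest and the lowest line lay at least 2-fold apart for 3800 genes in WT (24.7%) and 8068 in Prkd3-/- (52.2%). They lay at least 4-fold apart for 1516 genes in WT (9.87%) and 3303 in Prkd3-/- (21.4%), and at least 64-fold apart for 251 and 588 genes. These counts carry no test. Strongly varying genes were also less abundant, with a median of 7.73 CPM in the tenth of genes with the largest SD between WT lines against 32.3 CPM in the tenth with the smallest, and of 5.29 against 32.7 CPM in Prkd3-/-.

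Whether the lines differed beyond the spread of the primary libraries was tested gene by gene with the quasi-likelihood F test of edgeR, each line having its own term. In WT, 3530 of 15360 genes (23.0%) passed an adjusted p-value of 0.01 with a log2 range of at least 1. In Prkd3-/-, 0 of 15460 genes (0%) did so, while 5751 had an unadjusted p-value under 0.05. The biological coefficient of variation was 5.35% between WT and 28.55% between Prkd3-/- primary libraries. Without primary clone 14, which had the greatest distance from its group among primary libraries, 5071 Prkd3-/- genes passed, and DESeq2 called 4126. With 1 spread estimated over both genotypes, 657 WT and 3985 Prkd3-/- genes passed. The WT count was 1828 without WT line 3 and 2000 without WT line 5. Each line is 1 library, so these p-values assume that a line varies like the primary libraries do, and that spread may be technical.

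**Figure D1:**
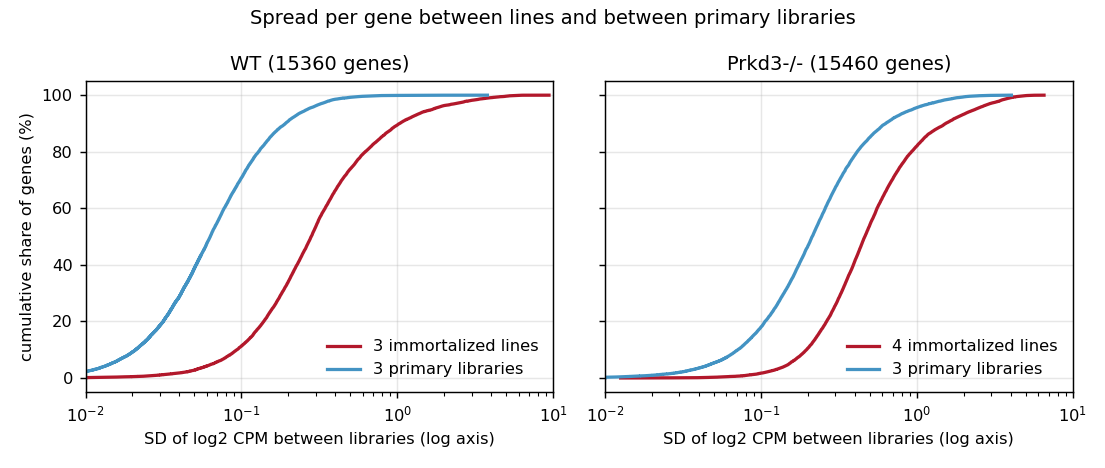
Cumulative share of genes in % (y axis) by the SD of log2 CPM (x axis, log scale) between the lines (red) and between the primary libraries (blue) of each genotype, for genes with a mean of at least 1 CPM over the lines. The curves of the lines lie to the right of those of the primary libraries, with medians of 0.28 against 0.06 in WT and 0.46 against 0.21 in Prkd3-/-.

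Over all 15804 genes in the comparison, each library's distance from its group was taken as the root mean square difference in log2 CPM from the group mean, corrected for group size. WT lines 3, 4 and 5 stood at 0.92, 0.77 and 0.85. Prkd3-/- lines 13, 13a, 14 and 15 stood at 1.37, 0.90, 1.08 and 0.80. The WT primary libraries stood at 0.12 to 0.15 and the Prkd3-/- primary libraries at 0.34 to 0.66, so lines and primary libraries did not overlap. The means were 0.96 for the lines (n = 7) and 0.31 for the primary libraries (n = 6), a difference of 0.65 (exact two-sided permutation test within genotype, 700 labelings, p = 0.002857).

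WT lines 3 and 5 were the least alike of the WT lines, and WT lines 4 and 5 the most alike. In edgeR at an adjusted p-value of 0.01 and a log2 difference of at least 1, 2619 genes separated WT lines 3 and 5, 2058 separated 3 and 4, and 1791 separated 4 and 5. Most of the genes that separated line 5 from either other line were higher in line 5 (1612 of 2619 against line 3 and 1147 of 1791 against line 4).

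Among the Prkd3-/- lines, line 13 stood apart. At least 4-fold differences, counted without a test, separated line 13 from line 14 at 2451 genes, from line 13a at 1746 and from line 15 at 1523. Lines 13a, 14 and 15 were separated from each other at 823 to 1225 genes. Lines 13 and 13a, with 1 clone number between them, were thus less alike than lines 13a and 15 (Pearson r of log2 CPM across genes 0.83 and 0.91). Line 13a was nearer to the Prkd3-/- primary libraries (r 0.94 with each) than line 13 was (r 0.78 to 0.86). These r values are across genes, which are not replicates.

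Programs of protein synthesis, protein turnover and respiration were among the most alike between lines. The 81 cytosolic ribosomal protein genes over 1 CPM had a median SD of 0.15 between WT lines and 0.26 between Prkd3-/- lines, against 0.28 and 0.46 over all genes, and 0 of 81 passed the test in WT, where 23.0% of all genes passed. None of the 36 core spliceosome genes (median SD 0.19) and 13 RNA polymerase II subunits (0.16) passed in WT either. Between Prkd3-/- lines the polymerase subunits had a median SD of 0.28, whereas the spliceosome genes, at 0.45, were close to the 0.46 of all genes. Of 79 nuclear genes of oxidative phosphorylation 3 passed (median SD 0.17), among them Cox6b2, a subunit isoform of cytochrome c oxidase, at 3.72, 0.64 and 6.65 CPM in WT lines 3, 4 and 5. Ndufa10, a subunit of complex I, lay between 81.9 and 94.7 CPM in all 7 lines.

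The proteasome was constant apart from its interferon-inducible subunits. Of 37 subunit genes (median SD 0.13 in WT and 0.30 in Prkd3-/-) 3 passed in WT, against 23.0% of all genes. Psmb8 and Psmb9, which replace constitutive catalytic subunits in the immunoproteasome, had the largest SDs in both genotypes, 2.29 and 1.42 in WT and 2.14 and 1.93 in Prkd3-/-. Psmd3, a lid subunit, was at 135, 135 and 135 CPM in WT lines 3, 4 and 5 (SD 0.0028).

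Reference genes used for RT-qPCR were not equally constant. Tbp, the TATA-binding protein, was at 28.2, 28.2 and 28.1 CPM in WT lines 3, 4 and 5, and Rplp0, a ribosomal stalk protein, stayed between 1091 and 1295 CPM in all 7 lines. Ywhaz, a 14-3-3 protein, had SDs of 0.05 and 0.13 in WT and Prkd3-/-. Actb, cytoplasmic actin, was at 7121, 3585 and 2908 CPM in the WT lines and passed the test. B2m, the light chain of MHC class I, also passed at 248, 371 and 872 CPM. Tfrc, the transferrin receptor, lay between 40.5 and 47.7 CPM in WT lines but was at 359, 83.9, 17.8 and 52.4 CPM in lines 13, 13a, 14 and 15.

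The 12 genes with the smallest SDs in both genotypes, at a mean of at least 10 CPM, were Smap1, Cops7a, B3gat2, Sap30l, Dhx8, Zbtb7a, Josd1, Mrpl43, Tmem185b, Ndufa10, Rela and Zdhhc5. They were selected by that SD and carry no test. Smap1 (chr1:23844846-23922317) and B3gat2 (chr1:23761753-23849158) overlap on chromosome 1, so they may share reads and need not be independent. Smap1, a GTPase-activating protein of vesicle traffic, lay between 72.7 and 85.5 CPM over the 7 lines. Rela, the p65 subunit of NF-kB, lay between 86.6 and 101 CPM, and Dhx8, a splicing helicase, between 53.2 and 62.2 CPM.

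**Figure D2:**
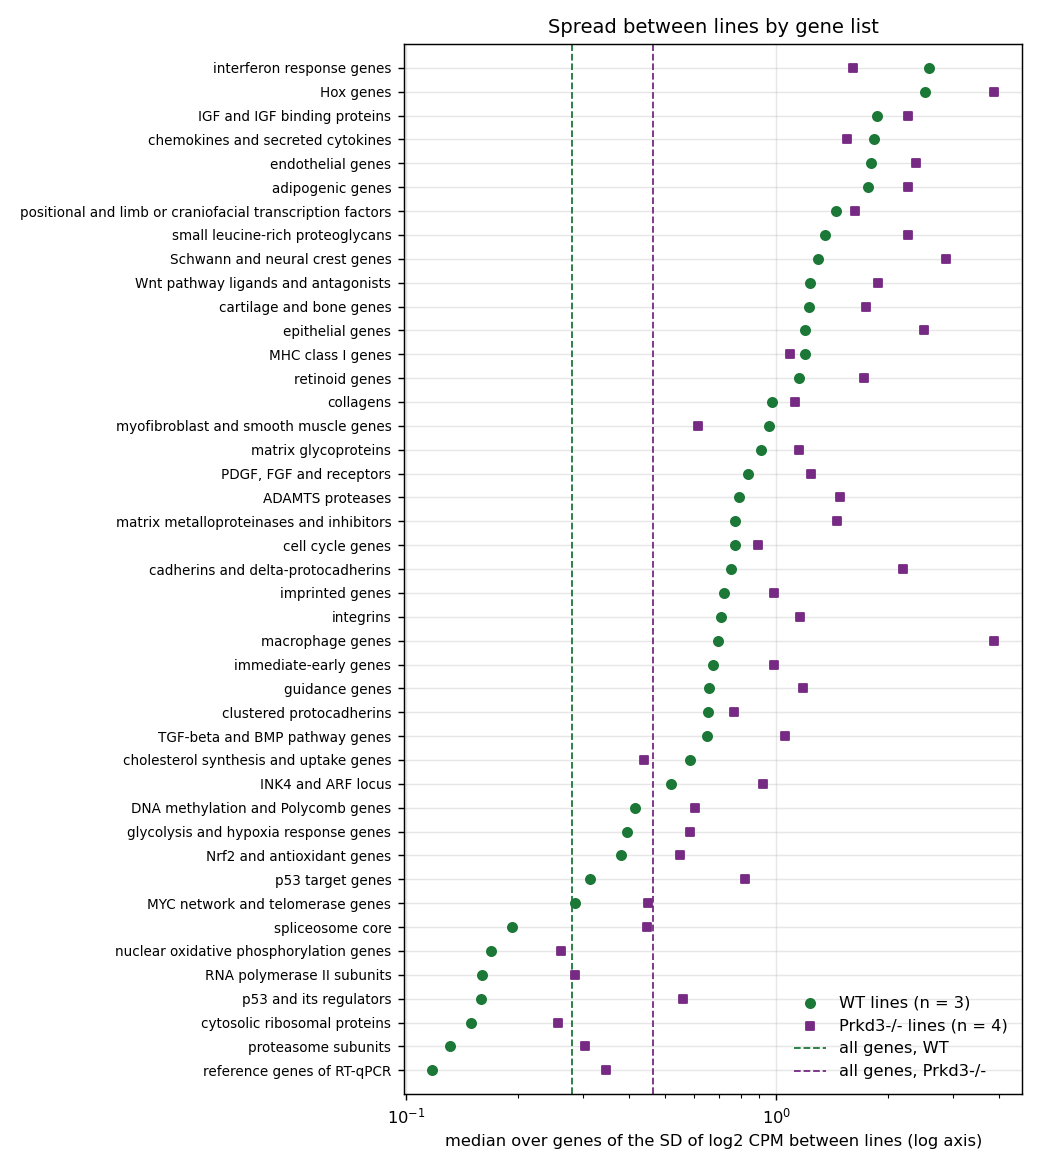
Median over the genes of a list of the SD of log2 CPM between lines (x axis, log scale), for each gene list (y axis), circles for the 3 WT lines and squares for the 4 Prkd3-/- lines, with a dashed line at the median over all genes of each genotype (0.28 and 0.46). Ribosomal, RNA polymerase II, proteasome and oxidative phosphorylation genes lie left of the dashed line of their genotype, and Hox, interferon response, IGF and small proteoglycan genes lie to its right.

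Of 44 lists with at least 5 genes over 1 CPM in WT, 37 had a median SD above that of all genes and 7 below; in Prkd3-/- these were 35 and 8 of 43. The lists were chosen with earlier results of these data known, so these counts depend on which lists were made. Lists above the median of all genes included those of position, matrix, secreted signals and immunity, described in turn below.

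Hox genes, the transcription factors that encode position along the body axis and the limb, varied widely. Their median SD was 2.52 between WT lines, where 25 of 28 genes over 1 CPM passed the test, against 23.0% of all genes. It was 3.87 between Prkd3-/- lines, where 32 of 33 spanned at least 4-fold against 21.4% of all genes. The Prkd3-/- primary libraries varied in the same genes (median SD 1.44, against 0.20 in WT primary libraries).

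The distal Hoxd genes, which pattern the hand and foot, were near absent from some lines and high in others. The summed level of Hoxd10 to Hoxd13 was 0.02, 0.28 and 0.06 CPM in WT lines 3, 4 and 5, although the 3 WT primary libraries held 97.5 to 121 CPM. It was 288 CPM in line 13, 14.8 in line 13a, 0 in line 14 and 16.2 in line 15. The primary libraries of clones 13, 14 and 15 held 268, 12.3 and 200 CPM. Line 13 thus lay near the primary library of its number, and lines 14 and 15 lay below theirs. Line 13a, which carries the clone number of line 13, lay far below the clone 13 library.

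Hoxd13 (chr2:74668310-74671599, mm10), the most distal gene of that cluster, had 10706 counts in line 13, 39 in line 13a, 0 in line 14 and 900 in line 15. That is 198, 0.54, 0 and 12 CPM. A count of 0 in line 14 allows up to 0.05 CPM at 3 counts. The 4 lines were thus spread from no counts to the level of the clone 13 primary library, 181 CPM.

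The other clusters divided the lines in other ways. Distal Hoxa genes (Hoxa10, Hoxa11 and Hoxa13) summed to 77.4, 2.17 and 31.2 CPM in WT lines 3, 4 and 5 and to 88.5, 47.3, 0 and 76.6 CPM in lines 13, 13a, 14 and 15, and line 14 was the only line without a count. The Hoxb genes summed to 3.92, 381 and 61.3 CPM in the WT lines and to 0.98, 122, 111 and 214 CPM in lines 13, 13a, 14 and 15. WT line 3 and line 13 were the low ones. The Hoxc genes summed to 113, 125 and 268 CPM in the WT lines and to 0.15, 75.5, 10.0 and 124 CPM in lines 13, 13a, 14 and 15, and all 9 Hoxc genes were at 3 counts or fewer in line 13. Hoxa11 shares exon bases with its antisense gene Hoxa11os, and their reads cannot be told apart without strand.

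**Figure D3:**
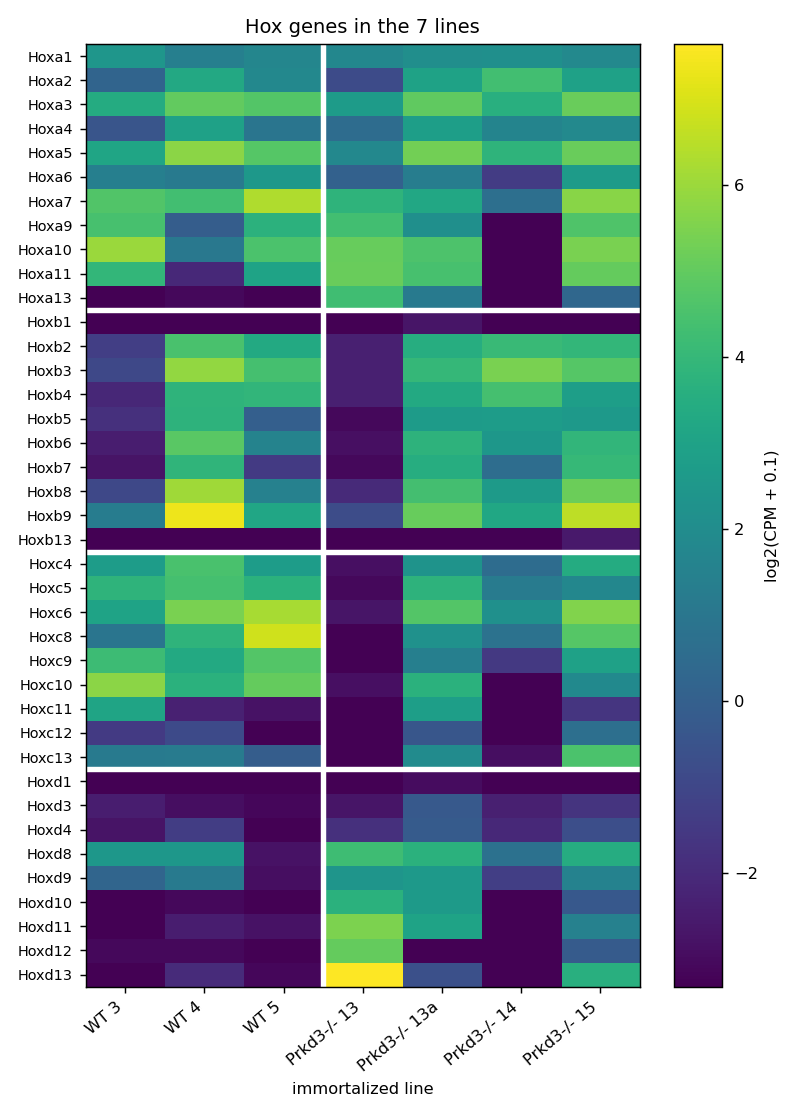
Heat map of log2(CPM + 0.1) for 39 Hox genes (rows, by cluster and paralog number, white horizontal lines separating the clusters) in the 7 lines (columns, a white vertical line separating WT from Prkd3-/-). Line 13 is dark across Hoxb and Hoxc and bright at distal Hoxd, where Hoxd13 reaches 198 CPM, and line 14 is dark at distal Hoxa, Hoxc and Hoxd.

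Other positional transcription factors followed. Of 43 over 1 CPM in WT 35 passed the test (median SD 1.45), against 23.0% of all genes. In Prkd3-/- 39 of 48 spanned at least 4-fold (median SD 1.63), against 21.4% of all genes. Twist1, a general mesenchymal factor, was among the constant members at 43.6 to 51.1 CPM in WT lines (SD 0.11), and Prrx1, a marker of limb and lateral plate mesenchyme, was present in every line between 176 and 1027 CPM.

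Single positional factors marked single lines. Zic2, a factor of the dorsal neural tube and its neighbours, had 4202 counts (65.4 CPM) in line 14 and 0 counts in each of the other 6 lines. Its relative Zic1 was at 52.9 CPM in line 14 and 26.4 CPM in line 13a, with 0 counts in lines 13 and 15 and 0.02 to 0.40 CPM in WT lines. Pax1, a factor of the sclerotome and pharyngeal pouches, was at 27.4 CPM in WT line 4 and 40.5 CPM in line 14, and at 0.27 CPM or less in the other lines. Foxd1 was at 13, 16.8, 238 and 0.04 CPM in lines 13, 13a, 14 and 15.

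Limb factors split between lines as well. Tbx4, known from hindlimb and lung mesenchyme, was at 7.66 CPM in line 13 and at 0.02 CPM or less in every other line. Tbx5, known from forelimb and heart, was at 33.9 CPM in line 13 and 28.6 CPM in line 15 and between 0.02 and 1.38 CPM in the others. Alx4, a craniofacial and limb factor, was at 0, 2.59 and 60.2 CPM in WT lines 3, 4 and 5. Sox2 (chr3:34650405-34652461, mm10), a factor of stem and progenitor cells, was at 58.5 CPM in line 13 and 7.17 CPM in WT line 3 and at 0.44 CPM or less in the others.

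The extracellular matrix varied by component. The main fibrillar collagens were high in all lines, with Col1a2 between 4807 and 17210 CPM. The collagen list had a median SD of 0.97 in WT, where 23 of 31 passed, against 23.0% of all genes. Its median SD was 1.13 in Prkd3-/-, where 20 of 33 spanned at least 4-fold, against 21.4% of all genes. Col2a1, the collagen of cartilage, was at 252, 689 and 6.15 CPM in WT lines 3, 4 and 5 and at 80.2, 809, 2004 and 366 CPM in lines 13, 13a, 14 and 15. WT line 5 and line 13 were the low lines of their genotypes. Col14a1, a fibril-associated collagen, was at 0.04, 97.4, 43.5 and 0.27 CPM in lines 13, 13a, 14 and 15. Postn, periostin, was at 17.5, 6331 and 1389 CPM in the WT lines.

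Small leucine-rich proteoglycans, which bind collagen fibrils, had a median SD of 1.35 in WT and 2.27 in Prkd3-/-. In WT 9 of 11 passed, against 23.0% of all genes. In Prkd3-/- 10 of 11 spanned at least 4-fold, against 21.4% of all genes. Dcn, decorin, was at 0.68, 156 and 458 CPM in WT lines 3, 4 and 5 and at 0.37, 206, 91.9 and 0.69 CPM in lines 13, 13a, 14 and 15. Lum, lumican, was low in the same lines, at 0.05, 95.2 and 11.4 CPM in WT and 1.52, 73.2, 6.11 and 0.29 CPM in Prkd3-/-. Bgn, biglycan, was the constant member at 3886 to 7667 CPM in all 7 lines. WT line 3, line 13 and line 15 were thus low in Dcn and Lum but not in Bgn, and Dcn and Lum are among the fibroblast markers that fell below 1 CPM.

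Insulin-like growth factors, which drive fibroblast growth, and their binding proteins had a median SD of 1.87 in WT and 2.26 in Prkd3-/-. In WT 10 of 10 passed the test, against 23.0% of all genes. In Prkd3-/- 7 of 10 spanned at least 4-fold, against 21.4% of all genes. Igf1 was at 3.22, 120 and 80.5 CPM in WT lines 3, 4 and 5 and at 5.15, 29.0, 67.7 and 23.1 CPM in lines 13, 13a, 14 and 15. Igf2 was at 0.56, 300 and 256 CPM and at 0.61, 528, 113 and 84.0 CPM. Both ligands were lowest in WT line 3 and in line 13, although Igf2 shares exon bases with another gene, so its counts are uncertain.

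The receptor Igf1r, which signals, varied less than the ligands. It was at 519, 297 and 228 CPM in the WT lines and 178 to 250 CPM in the Prkd3-/- lines (SD 0.61 and 0.21). Igf2r, which clears Igf2, was at 220, 894 and 414 CPM in the WT lines (SD 1.01) and at 286 to 450 CPM in the Prkd3-/- lines (SD 0.29). Igfbp5, a binding protein in the matrix, was at 2.43, 223, 232 and 1.74 CPM in lines 13, 13a, 14 and 15, high in one pair of lines and low in the other. Igfbp2 was at 6.10, 324, 1598 and 16.1 CPM, with the same pair high.

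Several secreted and inflammatory genes were high in WT line 5 and low in the other WT lines. Most of them were named for their spread, and they were not tested as a group. Saa3 (chr7:46711998-46715700, mm10), serum amyloid A3, had 0 counts in WT line 3, 3 counts in WT line 4 and 149546 counts in WT line 5 (2298 CPM), and it stayed at 0.03 CPM or less in the Prkd3-/- lines. It had the largest SD of all WT genes (9.40). Lcn2, lipocalin 2, was at 0, 0.07 and 495 CPM in the WT lines. C3, the central complement component, was at 1.21, 0.60 and 1236 CPM, and Hp, haptoglobin, at 0.03, 1.78 and 124 CPM. Nos2, inducible nitric oxide synthase, had counts in WT line 5 only among WT lines (17.9 CPM), and Il6 was at 0.08, 1.95 and 29.4 CPM. Kng1 and Kng2 were at 96.3 and 107 CPM in WT line 5, but these paralogs are similar enough that reads may be split between them.

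All 33 interferon response genes over 1 CPM passed the test between WT lines (median SD 2.58), against 23.0% of all genes. At least 4-fold was spanned by 30 of them, against 9.87% of all genes. Their mean log2 CPM was 0.21, 1.33 and 5.16 in WT lines 3, 4 and 5, against 4.44 to 4.62 in the WT primary libraries, so WT line 5 lay above and the other lines below the primary range. In Prkd3-/- lines 28 of 30 spanned at least 4-fold (median SD 1.61), against 21.4% of all genes. The mean was −0.25, 3.51, 1.72 and 0.60 in lines 13, 13a, 14 and 15. It was 2.66, 4.42 and 2.34 in the primary libraries of clones 13, 14 and 15. These primary libraries thus varied in the same genes (median SD 1.07, against 0.10 in WT primary libraries).

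The genes whose promoters are printed above, chosen after their values were seen, showed this pattern. Ifit1, which binds foreign RNA, was at 0.41, 2.86 and 239 CPM in WT lines 3, 4 and 5 and at 0.78, 28.0, 3.13 and 3.39 CPM in lines 13, 13a, 14 and 15. Ifit3 was at 10.7, 4.75 and 122 CPM and at 0.91, 45.7, 6.67 and 9.37 CPM. Isg15, a ubiquitin-like modifier, was at 0.56, 2.23 and 54.9 CPM and at 0.59, 21.1, 1.91 and 0.28 CPM. WT line 5 and line 13a were the highest of their genotypes for all 3 genes.

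Antigen presentation varied with less amplitude. All 13 MHC class I genes over 1 CPM passed the test in WT (median SD 1.19), against 23.0% of all genes. In Prkd3-/- 8 of 13 spanned at least 4-fold (median SD 1.09), against 21.4% of all genes. H2-K1, a class I heavy chain, was at 26.1, 13.7 and 71.5 CPM in WT lines 3, 4 and 5. Chemokines and cytokines passed at 21 of 29 genes in WT (median SD 1.84), against 23.0% of all genes. Ccl2, a monocyte attractant, was at 44.4, 7.11 and 253 CPM, again highest in WT line 5. Cxcl12, which did not pass at an adjusted p-value of 0.011 (edgeR), was at 53.6, 2164 and 3628 CPM, high in WT lines 4 and 5.

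Macrophage genes also varied between lines, and the summed markers were highest in WT line 5, mostly through Adgre1, and in line 13a. In bulk RNA, fewer cells of a type and less RNA per cell cannot be told apart. The 10 macrophage markers summed to 42.8, 32.5 and 96.0 CPM in WT lines 3, 4 and 5, with 7, 6 and 9 of them over 1 CPM and none at 0 counts. They summed to 17.2, 160, 9.96 and 15.5 CPM in lines 13, 13a, 14 and 15, where 2, 9, 1 and 2 exceeded 1 CPM and 7, 0, 0 and 1 were at 0 counts. Of the 17.2 CPM in line 13, 15.8 were Csf1r, the receptor for macrophage colony-stimulating factor, which shares 15.1% of its exon bases with another gene. The part of macrophage RNA in the interferon and inflammatory gene differences was not tested.

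Over the longer list of macrophage genes, 17 of 17 spanned at least 4-fold in Prkd3-/- (median SD 3.88), against 21.4% of all genes. In WT 12 of 18 passed (median SD 0.70), against 23.0% of all genes. The Prkd3-/- primary libraries varied in the same genes (median SD 1.76, against 0.05 in WT primary libraries). The 10 markers summed to 94.4, 939 and 216 CPM in the primary libraries of clones 13, 14 and 15. In the WT primary libraries they summed to 665 to 689 CPM, above every WT line. Lyz2, lysozyme, was at 0.06, 162, 2.66 and 3.77 CPM in lines 13, 13a, 14 and 15, and Ctss, cathepsin S, at 0, 30.7, 0.11 and 0.61 CPM. Adgre1, the F4/80 antigen, was at 2.22, 2.19 and 55.4 CPM in WT lines 3, 4 and 5. It made up most of the 96.0 CPM of summed markers in WT line 5, and without it WT lines 3 and 5 would be about level. The mean log2 CPM of the longer list was 1.47, 1.21 and 2.25 in WT lines 3, 4 and 5. C1qa, a complement subunit of macrophages, had an SD of 0.09 between WT lines, so Adgre1 and C1qa diverged there. Fcgr2b and Fcrls were among the 5 genes furthest above the other lines in line 13a, at 4.65 and 9.76 CPM.

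Imprinted genes, expressed from 1 parental allele, were uneven as well. Of 37 over 1 CPM 24 passed in WT (median SD 0.72, against 0.28 over all genes), where 23.0% of all genes passed. In Prkd3-/- 21 of 39 spanned at least 4-fold (median SD 0.98, against 0.46), where 21.4% of all genes did. Their mean log2 CPM was 2.41 in line 13 and 4.91 to 5.13 in lines 13a, 14 and 15, and 3.92, 5.18 and 4.43 in WT lines 3, 4 and 5. Line 13 was therefore the low one in Prkd3-/-, and WT line 3 in WT.

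H19, a growth-restraining RNA of the Igf2 domain on chromosome 7, was at 1.82, 2490 and 475 CPM in WT lines 3, 4 and 5 and at 86.9, 1817, 217 and 66.2 CPM in lines 13, 13a, 14 and 15. Its neighbour Igf2 shares 64.5% of its exon bases with Gm49394, so its counts are uncertain. Mest was at 5.71, 1620 and 12.1 CPM in the WT lines, a level that no other of the 7 lines reached. Peg3, a zinc finger gene, was at 23.3, 132 and 73.8 CPM in WT lines and 1.95, 180, 398 and 519 CPM in lines 13, 13a, 14 and 15.

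The Dlk1-Meg3 domain on chromosome 12 was low in line 13. Meg3 was at 0.83, 60.9, 127 and 148 CPM in lines 13, 13a, 14 and 15, and Rian at 3.75, 195, 183 and 285 CPM. In WT lines Meg3 kept to 53.2 to 80.1 CPM and Rian to 149 to 349 CPM. Gnas and Mcts2, also imprinted, were among the constant members, with Gnas between 1118 and 1665 CPM in all lines.

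The Cdkn2a-Cdkn2b locus on chromosome 4 was nearly without counts in 1 line. Cdkn2a (chr4:89274471-89294653, mm10), which encodes p16Ink4a and p19Arf, was at 80.7, 62.2 and 216 CPM in WT lines 3, 4 and 5 and at 0.22, 187, 68.8 and 84.5 CPM in lines 13, 13a, 14 and 15. Cdkn2b (chr4:89306299-89311039), which encodes p15Ink4b, was at 22.0, 31.0 and 104 CPM and at 0.13, 59.4, 31.8 and 23.2 CPM. Line 13 held 12 and 7 counts of them. Mtap (chr4:89137122-89181081), on the other side of Cdkn2a, was at 286 CPM in line 13 and 67.2 to 128 CPM in the other Prkd3-/- lines, so the low counts did not extend to it. Counts over the whole gene cannot separate the p16Ink4a and p19Arf transcripts.

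Between WT lines Cdkn2a and Cdkn2b passed the test, with WT line 5 the highest. Each line was sequenced once, and that test takes its spread from the WT primary libraries, which were close to each other. Both genes spanned a wider range between Prkd3-/- lines, where 0 of 15460 genes passed. Passing in WT is therefore no measure of how strongly the locus varied. Cdkn2d, a relative on another chromosome, stayed between 8.10 and 15.8 CPM in all 7 lines.

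Between WT lines Trp53 and most of its targets varied less than the Cdkn2a-Cdkn2b locus. Trp53 itself was at 158, 110 and 133 CPM in the WT lines and at 253, 106, 167 and 137 CPM in lines 13, 13a, 14 and 15. Of 35 p53 target genes 7 passed in WT (median SD 0.31, against 0.28 over all genes), a share near the 23.0% background. In Prkd3-/- 15 of 34 spanned at least 4-fold (44.1%, against 21.4% of all genes), with a median SD of 0.82 against 0.46. Their mean log2 CPM was 5.60, 5.60 and 5.90 in the WT lines and 4.57, 5.28, 5.67 and 6.07 in lines 13, 13a, 14 and 15. Cdkn1a, the p21 inhibitor, was at 336, 420 and 549 CPM in WT and 107, 224, 410 and 241 CPM in Prkd3-/-. Mdm2 (chr10:117688875-117710758), which degrades p53, was at 79.2, 137, 97.7 and 434 CPM, highest in line 15.

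Cell cycle genes passed at 34 of 48 in WT (median SD 0.77), against 23.0% of all genes. Of these 48 genes 3 spanned at least 4-fold (6.25%, against 9.87% of all genes). In Prkd3-/- 24 of 49 spanned at least 4-fold (49.0%, against 21.4% of all genes), with a median SD of 0.89 against 0.46. Their mean log2 CPM was 5.41, 4.92 and 4.19 in WT lines 3, 4 and 5 and 6.83, 5.27, 5.33 and 5.87 in lines 13, 13a, 14 and 15. Mki67, a proliferation marker, was at 224, 144 and 43.5 CPM in the WT lines and at 497, 88.3, 91.0 and 267 CPM in the Prkd3-/- lines. Ccnd2, cyclin D2, was steady in WT at 964 to 1243 CPM but was at 182, 1377, 1543 and 2231 CPM in lines 13, 13a, 14 and 15, so line 13 was the highest for the list and the lowest for this member. The density of the cultures at harvest was not tested.

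Sex-linked transcripts differed between lines of the same genotype. The Y-linked Kdm5d (chrY:897788-956786, mm10) was at 0.02, 8.04 and 17.9 CPM in WT lines 3, 4 and 5 and Ddx3y (chrY:1260771-1286629) at 0.22, 33.8 and 65.6 CPM, so WT line 3 had almost none. Xist was at 175, 160 and 56.5 CPM in those lines and at 0.16 CPM or less in each Prkd3-/- line. WT lines 4 and 5 thus contained both Xist and Y-linked transcripts, as did the WT primary libraries.

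Among the Prkd3-/- lines Kdm5d was between 18.4 and 33.8 CPM, Uty between 17.2 and 30.7 CPM and Ddx3y between 47.0 and 149 CPM. Eif2s3y (chrY:1010543-1028847), a Y-linked translation factor, was instead at 0.07, 32.8, 2.43 and 26.3 CPM in lines 13, 13a, 14 and 15. It lies between Kdm5d and Uty on the Y chromosome, so the low counts of lines 13 and 14 did not extend to the flanking genes.

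Some chromosomes lay to 1 side of the mean in some lines. For each chromosome the median over its genes of log2 CPM relative to the mean of that genotype's lines was taken. Chromosome 16 was at −0.44 in line 15 and at 0.13, 0.16 and 0.18 in lines 13, 13a and 14, and 83.7% to 89.3% of its genes lay below the mean in the proximal, middle and distal parts (equal numbers of genes). Chromosome 6 was at 0.34 in line 15 and chromosome 4 at −0.27. Chromosome 7 was at −0.41 in line 14 and 0.25 in line 13, with its proximal, middle and distal parts in line 14 between −0.49 and −0.31.

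Chromosome 18 was at 0.38 in line 13, but its middle part was at −0.14. In WT lines the furthest values were on chromosome 10, at 0.24 in WT line 4 and −0.20 in WT line 3. Because each value is relative to a mean that includes the line itself, a shift in 1 line moves the other lines the opposite way.

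**Figure D4:**
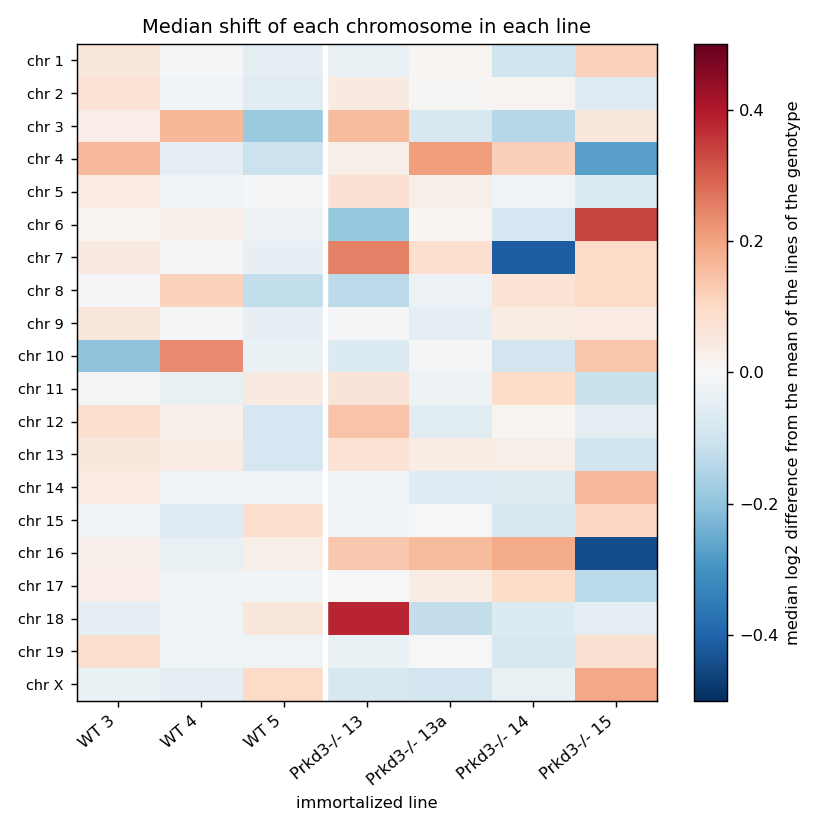
Median over genes of log2 CPM relative to the mean of the lines of the same genotype (colour, red above and blue below), for each chromosome (rows) and line (columns). The lowest value is chromosome 16 of line 15 at −0.44, followed by chromosome 7 of line 14 at −0.41, and the highest is chromosome 18 of line 13 at 0.38.

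The same genes tended to diverge in both genotypes, which share no library. Of 14887 genes over 1 CPM in both, the 745 with the largest SDs in each genotype (the top 5%) had 387 in common. That is 52.0% of each list, where lists drawn at random would share about 5%. Less abundant genes had larger SDs in both genotypes, so 5% is a low mark, and no lists matched for level were drawn. A gene that passed the level minimum through 1 high line also has a large SD. The SDs had a Pearson r of 0.66 and a Spearman rho of 0.54 across genes, which share annotation, expression level and laboratory. The 745 genes that varied most between WT lines had a median SD of 2.12 between Prkd3-/- lines, and 88.5% of them spanned at least 4-fold there, against 0.45 and 19.5% over all 14887 genes. Of the 745 that varied most between Prkd3-/- lines, 623 (83.6%) passed the test in WT, against 21.6% of the 14887. Primary libraries varied more in such genes too. The 745 chosen in WT lines had a median SD of 0.71 between Prkd3-/- primary libraries, against 0.21 over all 14887. Those chosen in Prkd3-/- lines had 0.12 between WT primary libraries, against 0.06. A larger spread of these genes was thus not particular to immortalized lines.

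Constant genes carried over as well. The 745 genes with the smallest SDs between WT lines had a median SD of 0.31 between Prkd3-/- lines, with 2.01% at least 4-fold apart. Of the 745 smallest in Prkd3-/-, 2.69% passed the test in WT.

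The 12 genes with the largest SDs in both genotypes at once were Sox2, Mmp3, Hp, Zim1, Dcn, Tmem252, Pgm5, Ildr2, Apod, Igf2, Sorcs1 and Fcrls. They were chosen by that SD and carry no test, and the counts of Igf2 are uncertain because of its shared exon bases. Mmp3, stromelysin 1, was at 0.05, 0.22 and 108 CPM in WT lines 3, 4 and 5 and at 23.4, 13, 0 and 0.75 CPM in lines 13, 13a, 14 and 15. Apod, a lipid carrier that rises in resting fibroblasts, was at 0, 1.95 and 16.9 CPM and at 0, 3.82, 20.0 and 0.45 CPM. Pgm5, a protein of adherens junctions, was at 0.05, 0.60 and 35.9 CPM and at 0, 30.4, 8.01 and 0.16 CPM.

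Each line also had genes that set it apart from the other lines of its genotype. WT line 5 had 333 genes at least 4-fold above and 39 at least 4-fold below every other WT line. WT line 3 showed the reverse balance, with 103 above and 358 below, and WT line 4 had 118 above and 186 below. Line 13 had 102 above and 812 below every other Prkd3-/- line, line 13a 167 and 5, line 14 221 and 157, and line 15 50 and 96. Line 13 had 97 genes at 3 counts or fewer that reached at least 10 CPM in another Prkd3-/- line.

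In WT line 3, Sox2 and Cadm4 were among the 5 genes furthest above the others. Thrb, thyroid hormone receptor beta, was among the furthest below, at 0.02, 47.5 and 62.0 CPM in WT lines 3, 4 and 5. Ebf3, a mesenchymal factor, was at 0.08, 54.9 and 64.9 CPM in those lines and at 29.8 to 62.6 CPM in the Prkd3-/- lines, so WT line 3 was the only one of 7 that lacked it. In WT line 4, Meox1, a somite factor, was at 99.7 CPM against 0.17 and 0.48 CPM in WT lines 3 and 5. Gsc, goosecoid, had 0 counts there against 23.1 CPM in WT line 3 and 5.18 CPM in WT line 5. Neither trait was limited to WT line 4. Meox1 was at 5.19, 0.47, 3.73 and 28.5 CPM in lines 13, 13a, 14 and 15, and Gsc was at 0.25 to 0.78 CPM in those lines.

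In line 13, Coch, cochlin, was at 263 CPM and at most 1.24 CPM in the other Prkd3-/- lines. Gjb2, connexin 26, was at 822 CPM against 7.34, 0.87 and 1.26 CPM in lines 13a, 14 and 15. Ripk4, a kinase of epithelial differentiation, was at 40.7 CPM against 0.11 CPM or less. The 9 epithelial markers summed to 127 CPM in line 13, mostly Krt19 at 125 CPM, and only 1 of the 9 exceeded 1 CPM there, so these genes did not come with a full epithelial set. Ptgis, prostacyclin synthase, was the reverse, at 0.04 CPM against 41.6, 147 and 42.9 CPM.

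In line 14, Nsg2, a neuronal endosomal protein, was at 22.0 CPM and at 0.03 CPM or less in the other Prkd3-/- lines. In line 15, Slc14a1, a urea transporter, was at 101 CPM against 2.17, 4.30 and 0.67 CPM in lines 13, 13a and 14. Hspb8, a small heat shock protein, was at 1.30 CPM in line 15 and at 42.8 to 68.8 CPM in the other 6 lines. Cd34, a sialomucin of progenitor and stromal cells, was at 0.40 CPM in line 15 and between 14.1 and 52.1 CPM in the others.

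**Figure D5:**
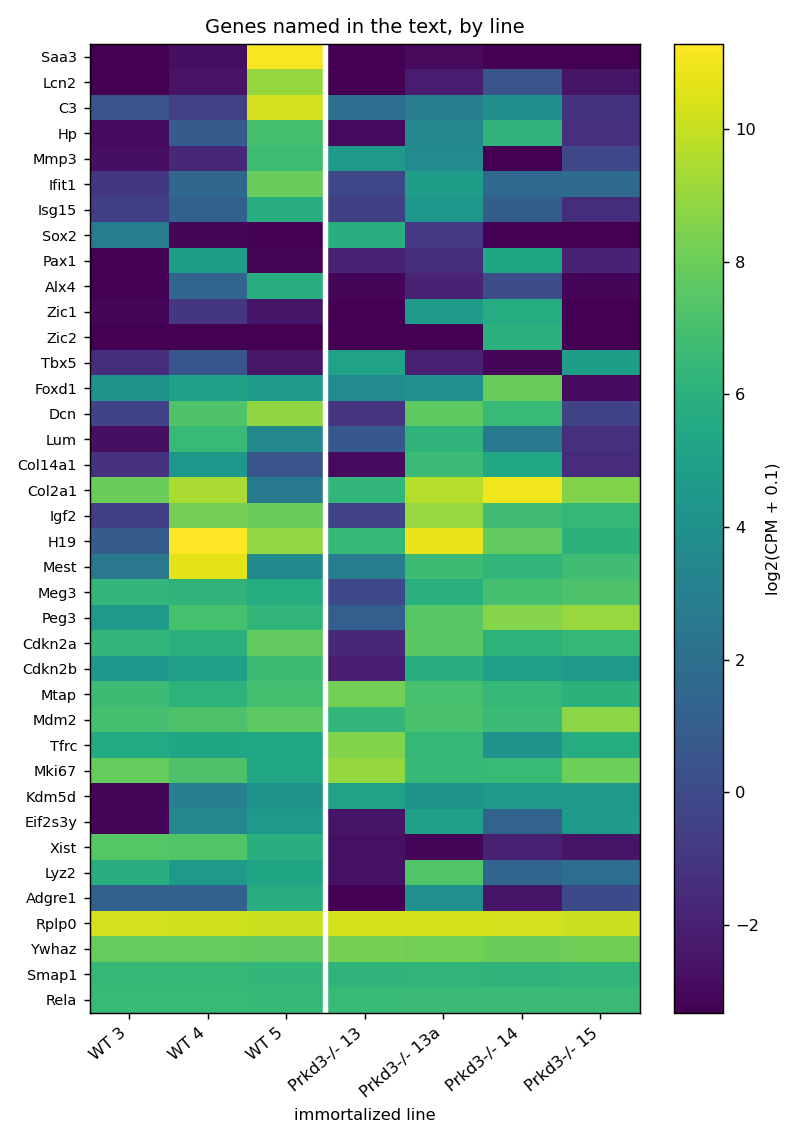
Heat map of log2(CPM + 0.1) of genes described in the text (rows) in the 7 lines (columns), a white vertical line separating WT from Prkd3-/-. Saa3 runs from 0 counts to 2298 CPM within WT, and Cdkn2a and Cdkn2b are dark in line 13 alone, while the constant genes Rplp0, Ywhaz, Smap1 and Rela keep nearly 1 shade across all lines.

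Markers of other cell types were present to unequal extents. Endothelial markers exceeded 1 CPM at no more than 2 of 7 in any line, and Schwann and neural crest markers at no more than 1 of 7. Of 6 smooth muscle markers 4 to 6 exceeded 1 CPM in each line, with summed levels from 2663 CPM in WT line 5 to 11040 CPM in WT line 3, and these include contractile genes that cultured fibroblasts also express. Of 6 adipocyte markers 3 or 4 exceeded 1 CPM.

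Prkd1 and Prkd2, the other members of the protein kinase D family, differed in constancy. Prkd1 was at 34.4, 18.4 and 14.2 CPM in WT lines 3, 4 and 5 and passed the test, and was at 35.8, 17.2, 14.6 and 25.9 CPM in the Prkd3-/- lines. Prkd2 stayed between 18.3 and 26.9 CPM in all 7 lines (SD 0.18 in each genotype).

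The selection by mean level left genes out. Under a mean of 1 CPM were 40127 genes in WT and 40027 in Prkd3-/-, of which 725 and 1176 exceeded 1 CPM in 1 or more lines. At the edge, Ptprq was just outside in WT (mean 0.999 CPM, SD 1.41) and Slc16a11 just outside in Prkd3-/- (SD 2.68), while Gm9726 (SD 0.36) and Gm43597 (SD 0.38) were just inside. A gene that is high in 1 line passes this minimum through that line, so the counts of genes at 4-fold cover genes that passed and not all annotated genes.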

How the data were processed

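RNA-seq libraries of 13 MEF cultures were used. Per the labels, the authors checked reads with FastQC 0.12.0, aligned them with STAR 2.7.10a and SAMtools 1.18, and counted them per gene with featureCounts (Subread 2.0.6) on GRCm38 (mm10), and deposited unnormalized counts, 1 table for each genotype. Whether counting used strand is not given in the sources used here. Groups came from the labels, and lines and primary cultures are named by clone number.

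Counts were scaled with TMM over all 13 libraries (edgeR 4.0.16, limma 3.58.1, R 4.3.3). SDs used log2 CPM with a prior count of 1, for genes with a mean of at least 1 CPM over the lines of the genotype. Printed CPM are TMM-scaled. Lines were compared by the edgeR quasi-likelihood F test within genotype, each line with its own coefficient and the primary libraries as 1 group, which leaves 2 residual degrees of freedom, at a Benjamini-Hochberg adjusted p-value of 0.01 and a log2 range of at least 1. The steps were tested on simulated data. Alternatives were DESeq2 1.42.0 and its size factors, library-size scaling, prior counts of 0.1 and 5, other filters and thresholds, 1 spread for both genotypes, and leaving out each library. Totals ran from 35273408 to 100441756 counts, and 3 counts, the limit that a count of 0 allows, equal 0.0413 to 0.0570 CPM in the lines. This covers counting error only. Python 3.11.15, pandas 2.3.3, SciPy 1.17.1 and matplotlib 3.10.9 served for summaries and figures.

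The members and the 47 gene lists were chosen with earlier results of these data known. Genes named were the 12 with the largest SD in each genotype, in both at once, and the 12 with the smallest in both at a mean of at least 10 CPM; the 5 furthest above and below the others in each line; in each list the members with the largest and smallest SD and the most abundant, and all members of lists of 12 genes or fewer; and reference and protein kinase D genes. Predicted genes were left out of this rule. Other list members named (among them Ifit1, Ifit3, Isg15, Ccl2, H2-K1, Peg3, Meg3, Rian, Mdm2 and Tbx5) and the genes at the edge of the level minimum were chosen after their values were seen. Gapdh and Ppia have many near-identical copies and were not described.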

Additional observations from a re-analysis of the deposited data

Results flagged for a closer look

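In a group of 4 libraries, the highest or lowest value was set against the spread of the other 3 by Dixon's ratio, which chance exceeds in about 1 in 20 groups. Of 163 measures tested over the Prkd3-/- lines 12 exceeded it (7.36%), and many of these measures were genes named for their spread. For such genes 1 in 20 is no valid reference. Some measures are also related, such as the mean of imprinted genes and single imprinted genes. The values below are therefore descriptions. WT has 3 lines and was not tested this way.

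Line 13 accounted for 10 of these. It had 24251 genes with a count, against 27551 to 27989 in the other Prkd3-/- lines. Its mean log2 CPM of imprinted genes was 2.41, against 4.91 to 5.13. Log2 CPM of Cdkn2a was −2.08 against 6.11 to 7.55, and of Cdkn2b −2.79 against 4.54 to 5.89. Rian was at 1.91 against 7.52 to 8.16, Mest at 2.83 against 6.30 to 6.80, and Dlk1, an imprinted regulator of adipogenesis, at 3.64 against 7.90 to 8.45. Cxcl12, a chemokine of stromal cells, was at 6.67 against 10.73 to 11.13, and Cox6b2 at −1.77 against 1.17 to 1.47. The median of chromosome 18 was 0.38 against −0.12 to −0.05.

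Line 15 had a chromosome 16 median of −0.44 against 0.13 to 0.18. Line 13a had a mean log2 CPM of TGF-beta and BMP pathway genes of 5.39 against 4.89 to 4.93. The causes of these values were not tested.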

How the results depend on the processing

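The test of line differences depended on which primary libraries set the spread. A log2 range of at least 2 left 1459 WT genes, and 1 spread for both genotypes gave 657 in WT and 3985 in Prkd3-/-. The Prkd3-/- count was 1083 at an adjusted p-value of 0.05, 1620 without a filter on low counts and 4126 with DESeq2, and 0 with the counts of lines 13 and 13a summed or with the spread taken from those lines.

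For pairs of WT lines (3 and 4, 3 and 5, 4 and 5 in this order), 1 spread for both genotypes gave 374, 485 and 177 genes and a log2 difference of at least 2 gave 856, 972 and 716. A mean of at least 5 CPM gave 1742 for lines 3 and 5 and 1110 for lines 4 and 5. For pairs of Prkd3-/- lines (13 and 13a, 13 and 14, 13 and 15, 13a and 14, 13a and 15, 14 and 15 in this order), where the edgeR count was 0, no filter gave 710, 2052, 597, 138, 132 and 361, 1 spread gave 1827, 4022, 1642, 512, 347 and 1366, and DESeq2 gave 2080, 3791, 1668, 809, 627 and 1396. At an adjusted p-value of 0.05 the pairs with line 13 gave 616, 3507 and 472.

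Without a filter the median SD was 0.57 in WT and 0.65 in Prkd3-/-. Leaving out each library in turn gave 1828 to 3678 WT genes, lowest without WT line 3 (1828) and WT line 5 (2000), and 0 to 5071 Prkd3-/- genes, above 0 only without primary clone 14. WT pairs then gave 1924 to 2192, 2497 to 2728 and 1651 to 1898 genes, and Prkd3-/- pairs 0 to 2698, 0 to 4610, 0 to 2194, 0 to 933, 0 to 758 and 0 to 1789. The median SD ran from 0.21 to 0.27 in WT and 0.38 to 0.50 in Prkd3-/-, and the difference in distance from 0.54 to 0.76. Library-size scaling shifted the median of a WT line by up to 0.20 on the log2 scale (Spearman rho of SDs 0.954) and of a Prkd3-/- line by up to 0.09.

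Pairing by clone number, the replicate block gave a difference in distance of 0.67 (exact two-sided permutation test, p = 0.03125, the smallest its 64 labelings allow). Here too, groups that mix states also hold the difference between the states. Deviations of same-numbered libraries correlated at −0.08, 0.06 and −0.08 in WT and 0.20, 0.09 and 0.05 in Prkd3-/-, and 2 of 6 lines correlated best with the primary library of their own number. The block was fitted to no other result, since each line is 1 library and the comparison is among lines, so that a block on clone number would take up the differences being tested. Lines 13 and 13a, which share a number, were also run with their counts summed (0 genes). Depth limits genes near 3 counts, where a level of 0 could not be told from 0.0413 to 0.0570 CPM.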
